A study of Mus musculus with 8 samples.

Results

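Of the H3K27ac intervals listed for EnPGC-1-treated CD8+ T cells, 33876 lay in gene deserts and overlapped no interval listed for DMSO-treated cells. H3K27ac is acetylation of lysine on the tail of histone H3, mapped here by chromatin immunoprecipitation and sequencing. They were chosen by 2 criteria, among distinct EnPGC-1 intervals on chromosomes 1 to 19: no base shared with a DMSO interval, and more than 50 kb to every protein-coding gene of the mm10 build. On these chromosomes 76.8% of all EnPGC-1 intervals, and 82.5% of those in deserts, overlapped no DMSO interval, and nothing is read from these shares because the choice used them. The intervals made up 17.8% (17.7 to 18.0) of the 189996 EnPGC-1-only intervals and 13.4% (13.2 to 13.5) of all 253423 distinct EnPGC-1 intervals. They are called desert intervals here. Both the absence from the DMSO list and the distance chose them, so their number is a description, and bracketed ranges are 95% exact Clopper-Pearson intervals that cover counting error only. These ranges treat intervals as independent, and are too narrow where neighbours go together.

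The cells were CD8+ T cells of C57BL/6 mice, taken from lymph node and spleen and stimulated with antibodies to CD3 and CD28. One group received EnPGC-1 for 48 h and the other received the vehicle DMSO. EnPGC-1 is a pyrrole-imidazole polyamide (PIP), a synthetic DNA-binding molecule made to induce PGC-1, a transcriptional coactivator of genes for mitochondria. The labels give 2 H3K27ac samples per treatment among 8 samples, the others being 2 IgG controls and 1 input with DMSO and 1 input with EnPGC-1. Only 1 list of intervals per treatment was used, so no spread between replicates and no test between treatments can be given. The depth of each sample is unknown here, and a deeper or more enriched library lists more intervals. Within 1 kb of a gene end, 4 of 10 T cell marker genes had an interval in the DMSO list and 9 of 10 in the EnPGC-1 list, beside 41.4% and 72.4% of all 21761 protein-coding genes. For 5 B cell markers the numbers were 2 and 4, for 5 myeloid markers 3 and 4, and for 5 erythroid markers 0 and 4. The lists do not separate the labelled cell type from others by these marker genes.

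Gene deserts are long stretches of a chromosome without protein-coding genes. Some hold distant enhancers that act on a gene at their edge, often a regulator of development or of a cell lineage, while others are known to be compact and to hold few active elements. H3K27ac is written by the acetyltransferases p300 and CBP and is known as a mark of active enhancers and promoters, those of long non-coding RNA genes included. A desert is taken here as the stretch between neighbouring protein-coding genes, and its core as that stretch without 50 kb at each end.

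Some desert intervals touched promoter windows of long non-coding RNA genes, and 6 such windows are printed to show what their sequence looks like in different deserts. Each is the RefSeq promoter window of GRCm38.p6, the assembly with mm10 coordinates, and runs from 250 bases before to 50 bases after the start on the strand of the gene. Capitals mark CG dinucleotides, the sites of DNA methylation that are rare outside CpG islands. The 6 were chosen after their values were seen, from dense deserts, from very long ones and for their CG content.

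C130026L21Rik, chr5:111581311-111581610, plus strand: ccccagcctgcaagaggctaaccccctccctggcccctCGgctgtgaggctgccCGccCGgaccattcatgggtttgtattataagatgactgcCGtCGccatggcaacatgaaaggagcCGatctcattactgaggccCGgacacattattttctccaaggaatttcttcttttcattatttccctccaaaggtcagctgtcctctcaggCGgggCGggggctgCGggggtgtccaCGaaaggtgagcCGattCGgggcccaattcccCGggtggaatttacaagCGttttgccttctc
Gm42320, chr4:131617187-131617486, plus strand: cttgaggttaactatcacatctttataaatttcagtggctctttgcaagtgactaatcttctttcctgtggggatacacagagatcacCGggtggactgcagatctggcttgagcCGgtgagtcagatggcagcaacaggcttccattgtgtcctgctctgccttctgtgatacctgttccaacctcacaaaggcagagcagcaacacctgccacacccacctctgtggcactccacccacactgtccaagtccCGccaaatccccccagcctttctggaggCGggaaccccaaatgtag
Zmiz1os1, chr14:25378469-25378768, minus strand: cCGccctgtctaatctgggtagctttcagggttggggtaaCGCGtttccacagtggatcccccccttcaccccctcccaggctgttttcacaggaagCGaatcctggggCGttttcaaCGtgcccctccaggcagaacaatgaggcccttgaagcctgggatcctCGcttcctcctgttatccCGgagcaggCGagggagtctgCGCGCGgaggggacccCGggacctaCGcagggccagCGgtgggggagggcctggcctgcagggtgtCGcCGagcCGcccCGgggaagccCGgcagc
E130102H24Rik, chr4:101356199-101356498, minus strand: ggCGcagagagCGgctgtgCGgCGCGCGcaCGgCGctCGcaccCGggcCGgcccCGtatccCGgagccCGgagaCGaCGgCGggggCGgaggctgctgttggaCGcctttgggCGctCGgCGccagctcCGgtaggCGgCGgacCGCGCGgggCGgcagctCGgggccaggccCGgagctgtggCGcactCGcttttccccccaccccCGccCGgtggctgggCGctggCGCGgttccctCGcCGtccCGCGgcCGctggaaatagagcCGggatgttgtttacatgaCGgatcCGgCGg
1190028D05Rik, chr8:52356361-52356660, plus strand: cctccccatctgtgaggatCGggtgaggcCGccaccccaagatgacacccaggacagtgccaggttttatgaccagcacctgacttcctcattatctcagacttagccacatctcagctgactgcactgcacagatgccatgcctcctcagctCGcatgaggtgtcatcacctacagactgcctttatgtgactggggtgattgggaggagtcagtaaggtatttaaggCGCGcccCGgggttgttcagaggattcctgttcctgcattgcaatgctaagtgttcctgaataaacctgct
4930402F11Rik, chr7:69495844-69496143, plus strand: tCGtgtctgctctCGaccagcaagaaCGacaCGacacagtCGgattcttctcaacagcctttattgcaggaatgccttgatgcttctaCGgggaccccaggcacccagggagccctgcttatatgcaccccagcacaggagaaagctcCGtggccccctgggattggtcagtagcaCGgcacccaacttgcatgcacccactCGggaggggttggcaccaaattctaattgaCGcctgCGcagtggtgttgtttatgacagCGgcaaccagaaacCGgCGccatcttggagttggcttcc

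The window of C130026L21Rik lies in the desert between Mn1 and Cryba4 and holds 15 CG dinucleotides. Only its first 136 of 300 bases, which end before the start of the gene, lay under a desert interval, with a score of 4.21. That score is read as the −log10 of the peak caller's q-value and ranks intervals within a list. The window of Gm42320, between Matn1 and Ptpru, holds 4 CG dinucleotides and lay wholly under an interval with a score of 7.05. Zmiz1os1 starts 78.7 kb from the nearest protein-coding gene, measured from its interval, on the side of Zmiz1, which encodes a coactivator of Notch signalling in T cells. Its window holds 20 CG dinucleotides and lay wholly under an interval with a score of 7.86. Of the 5 RefSeq windows of this gene, 4 lay under desert intervals. E130102H24Rik lies between the kinase gene Jak1 and Ak4 and has the richest window of those printed, with 47 CG dinucleotides and 76.7% G and C, of which 147 bases were covered. The starts of 1190028D05Rik and 4930402F11Rik lie deep in long deserts. The interval over 1190028D05Rik was 1154.9 kb from the nearest protein-coding gene, between Tenm3 and Aga, and scored 12.42. The interval over 4930402F11Rik was 747 kb from the nearest protein-coding gene, between Arrdc4 and the nuclear receptor gene Nr2f2, and scored 7.68.

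EnPGC-1-only intervals became sparser with distance from genes, and so did the intervals of the DMSO list. There were 105 EnPGC-1-only intervals per Mb inside protein-coding genes, 65.0 per Mb at 50 to 100 kb from them, 33.0 per Mb at 200 to 500 kb and 18.2 per Mb beyond 500 kb. DMSO intervals went from 51.0 per Mb inside genes to 21.7, 9.85 and 5.03 per Mb in the same bands. The density beyond 500 kb was 0.279 times (0.269 to 0.290) that at 50 to 100 kb for EnPGC-1-only intervals. It was 0.502 times (0.355 to 0.690) when distance was taken from every type of RefSeq gene. The number of EnPGC-1-only intervals for each DMSO interval was higher farther from genes, from 2.06 inside genes to 3.00 at 50 to 100 kb and 3.61 beyond 500 kb. EnPGC-1-only intervals exclude those that overlap DMSO, so this ratio depends on how they were chosen, and nothing is read from its rise. In the 213 deserts with cores of 1 Mb or more, desert intervals went from 32.8 per Mb at 50 to 100 kb to 18.1 per Mb beyond 500 kb, and DMSO intervals from 9.01 to 5.00 per Mb. Length still varied within this class, and the band beyond 500 kb has more sequence from its longest deserts.

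**Figure D1:**
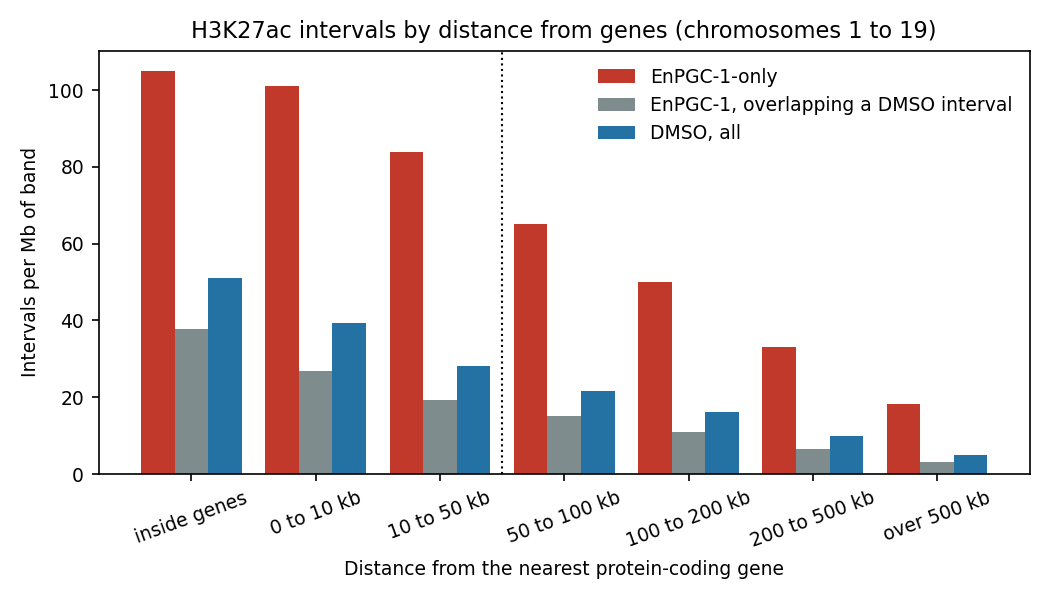
Intervals per Mb of sequence (vertical axis) in 7 bands of distance from the nearest protein-coding gene (horizontal axis) for EnPGC-1-only intervals, EnPGC-1 intervals that overlap a DMSO interval, and all DMSO intervals. The dotted line marks 50 kb, and all 3 kinds fall from left to right, EnPGC-1-only intervals from 105 to 18.2 per Mb.

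Desert intervals were narrower than EnPGC-1-only intervals nearer to genes and had similar scores. Their median width was 417 bp, with 5.08% reaching 1 kb, and the widest spanned 3206 bp. The 7198 EnPGC-1 intervals in deserts that overlapped a DMSO interval had a median width of 557 bp, and EnPGC-1-only intervals nearer to genes one of 475 bp. More than 1 summit was listed for 10.6% of the desert intervals, 24.5% of the 7198 overlapping DMSO and 17.0% of the nearer ones. Scores differed less, with medians of 3.56, 3.69 and 3.48, and 76 desert intervals reached a score of 10. Scores also came in steps: 5 values between 2.68 and 4.75 accounted for 44.2% (43.7 to 44.7) of desert intervals. At the limit of 50 kb there was no step, with 1726 EnPGC-1-only intervals of median width 443 bp in the 5 kb inside the limit and 1882 of 441 bp in the 5 kb outside it. The median distance of a desert interval from a protein-coding gene was 140 kb. Of the desert intervals, 3657 lay more than 500 kb and 1150 more than 1 Mb away.

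Many desert intervals had a DMSO interval in the neighbourhood, although none under them. The nearest DMSO interval was within 1 kb for 7.21% of desert intervals and within 10 kb for 40.3%, with a median of 15.7 kb. For 4075 of them (12%) it was more than 100 kb away. Conversely, 67.9% (67.0 to 68.8) of the 10703 DMSO intervals of the deserts overlapped an EnPGC-1 interval, against 74.7% (74.3 to 75) of DMSO intervals nearer to genes.

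Desert intervals were spread over most deserts but held unevenly. The 2476 deserts with a gene at both ends had 836 Mb of core and 33658 of the intervals, or 40.3 per Mb of core, which covered 2.02% of it. Another 218 intervals lay beyond the first or last gene of a chromosome and are in no desert with a known length. At least 1 desert interval was present in 2141 deserts. The 335 deserts without one had short cores, with a median of 14.7 kb and a maximum of 339 kb. Ordered by the intervals they held, the first 297 deserts reached 50% of all desert intervals with 42.5% of the core length, each holding 31 or more. The 241 longest deserts, which made up 50% of the core length, held 28.0% of the desert intervals. These sets shared 136 deserts, which is 45.8% of the first and 56.4% of the second.

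**Figure D2:**
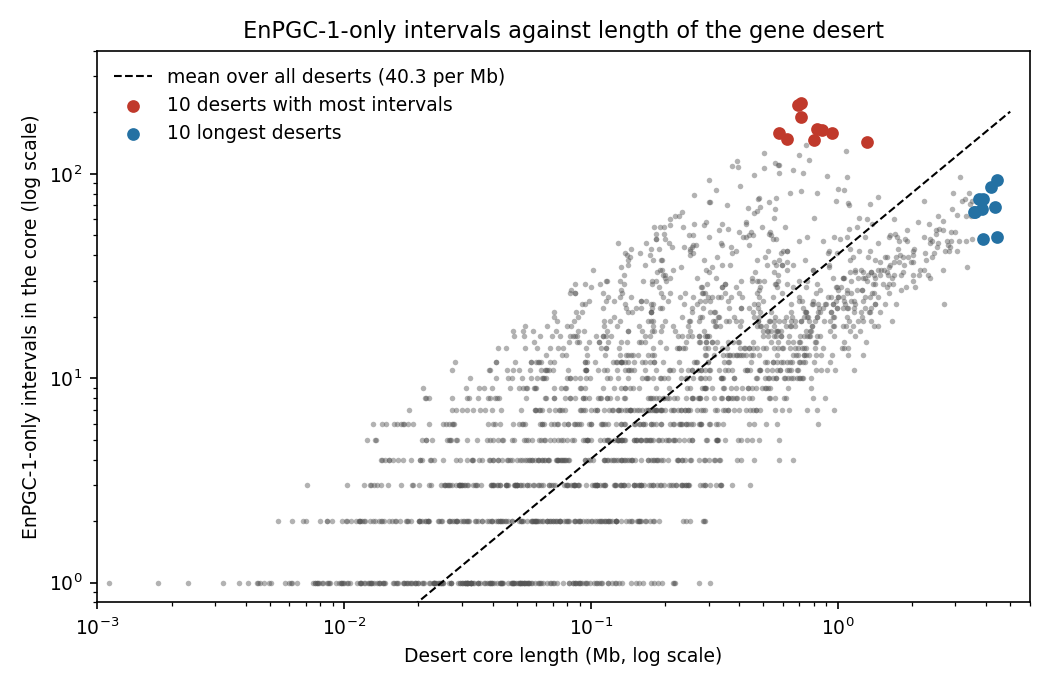
Number of EnPGC-1-only intervals (vertical axis, log scale) against core length in Mb (horizontal axis, log scale) for each desert with at least 1 interval. The 10 deserts with most intervals hold 143 to 223 and lie above the dashed mean of 40.3 per Mb, while the 10 longest deserts hold 48 to 93 and lie below it.

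Desert intervals were denser in shorter deserts and, in a separate grouping, in deserts with more genes around them. Cores under 100 kb had 83.5 desert intervals per Mb, cores of 500 kb to 1 Mb had 43.8 and cores of 2 Mb or more had 18.4. Deserts with 0 to 4 protein-coding genes within 1 Mb on either side had 19.5 per Mb and those with 40 or more had 88.2. The DMSO list showed the same order, with 28.9 and 5.10 per Mb at the extremes of length and 5.21 and 38.5 at the extremes of gene density. The ratio of desert intervals to DMSO intervals ran the other way, from 3.74 in the gene-poorest to 2.29 in the gene-richest surroundings. Since desert intervals exclude those that overlap DMSO, this ratio is not independent of how they were chosen. Deserts whose bordering genes both had a DMSO interval within 1 kb of an end held 63.7 desert intervals per Mb, those with 1 such gene 42.0 and those with none 30.9. Over the 488 deserts with cores of 500 kb or more, Spearman's rho between desert intervals and DMSO intervals per Mb was 0.62. It was 0.42 between desert intervals per Mb and the number of genes within 1 Mb, and 0.45 for DMSO intervals. The points come from the same 2 lists, and the values are descriptions. Between the ratio of desert intervals to DMSO intervals and the number of genes, rho was -0.16 over 487 deserts. Of the 50 deserts with most desert intervals, 31 (62.0%) were also among the 50 with most DMSO intervals.

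**Figure D3:**
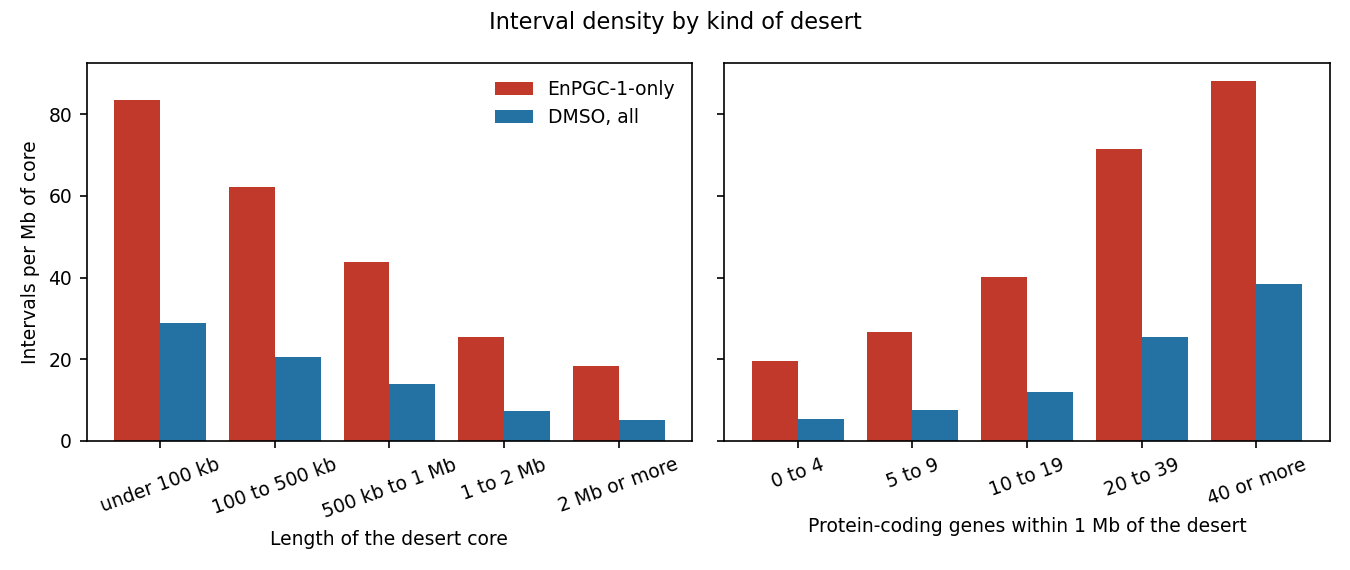
Intervals per Mb of desert core (vertical axis) for EnPGC-1-only intervals and all DMSO intervals, by core length (left) and by the number of protein-coding genes within 1 Mb of the desert (right). Both kinds fall with length and rise with gene number, EnPGC-1-only intervals from 83.5 to 18.4 and from 19.5 to 88.2 per Mb.

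Deserts of similar length differed widely. Among the 275 deserts with cores of 500 kb to 1 Mb the density ranged from 6.05 to 315 per Mb, with a median of 26. The 27 deserts with 100 or more per Mb held 40.1% of the desert intervals in this length class. Among the 213 deserts of 1 Mb or more the range was 8.53 to 120 per Mb, and 2 had 100 or more. Chromosomes differed less, from 30.4 per Mb of core on chromosome 3 to 54.7 on chromosome 9.

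The 10 deserts with most intervals held 1715 of them, 5.10% of the total in 0.964% of the core length, and 3 of the 10 were on chromosome 4. The desert between Nphp4, which encodes a protein of the cilium base, and Ajap1, which encodes an adherens junction protein, spans chr4:152563185-153373220 and held 223. The desert between Mn1, a transcriptional coregulator gene rearranged in leukaemia and meningioma, and the lens crystallin gene Cryba4 spans chr5:111457031-112246491 and held 217. These are the densest of the 10, with 314 and 315 desert intervals per Mb, which covered 20.5% and 21.4% of the core. The DMSO list was dense there too, with 83 and 92 intervals.

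The desert between the cartilage matrix gene Matn1 and the receptor phosphatase gene Ptpru held 189 desert intervals and 74 DMSO intervals. Between the cadherin gene Cdh26 and 4930591A17Rik there were 166 and 61. Between the ribosomal protein gene Rps24 and Zmiz1 there were 164 and 67, in a core of 0.861 Mb with 18 long non-coding RNA genes. On chromosome 15 there were 159 and 85 between Gm6569 and Adgrb1, an adhesion receptor gene of the brain, and 159 and 62 between Tbc1d22a and Tafa5. The ratio of desert intervals to DMSO intervals in the 10 deserts ran from 1.87, next to Adgrb1, to 3.29, beside 3.17 over all deserts. The deserts were picked for their desert intervals and the EnPGC-1 list is the longer one. Nothing is therefore read from ratios above 1.

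The remaining 3 deserts border regulators. Between Rragc, which encodes a Rag GTPase of nutrient sensing, and the transcription factor gene Pou3f1 there were 148 desert intervals and 45 DMSO intervals. Between the Mediator subunit gene Med13l and the T-box gene Tbx3 there were 147 and 66. Between the zinc finger gene Sall3 and the galanin receptor gene Galr1 there were 143 and 44. These 3 had ratios of 3.29, 2.23 and 3.25, beside 3.17 over all deserts. The numbers were lower when fewer EnPGC-1 intervals were kept: with only as many highest-scoring EnPGC-1 intervals as the DMSO list has, the 10 deserts held 37 to 74 each, and 8 of them were still among the first 10.

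Of the deserts with cores of 1 Mb or more, the densest lay between Mki67, the gene of the proliferation antigen Ki-67, and the DNA repair gene Mgmt, at chr7:135716451-136894462. It held 129 desert intervals, or 120 per Mb, and 50 DMSO intervals. Sall3 to Galr1 followed with 110 per Mb. Plekhb2 to Hs6st1, a heparan sulphate sulphotransferase gene, had 89.1 per Mb, and Sox2, the pluripotency factor gene, to Atp11b had 83.9. Dok5 to Cbln4 had 78.6 per Mb and the highest ratio of these 5, with 83 desert intervals for 13 DMSO intervals.

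The 5 sparsest deserts of this length had 8.53 to 11.1 desert intervals per Mb. Gm40892 to Flrt2, a gene of an axon guidance protein, had 23 desert intervals in 2.70 Mb, or 8.53 per Mb. Slco6d1 to Cntnap5b had 9.52 per Mb, Lrriq3 to the neuronal growth regulator gene Negr1 10.3, and the teneurin gene Tenm2 to Mat2b 10.5. Celf4 to Pik3c3, with a core of 4.41 Mb the second longest of all, had 49 desert intervals, or 11.1 per Mb. The longest desert, between the protocadherin genes Pcdh20 and Pcdh9, had 93 in 4.44 Mb, or 20.9 per Mb. The largest clusters of these 6 deserts had 1 to 4 intervals.

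Deserts next to neuronal adhesion genes had fewer desert intervals per Mb than deserts next to developmental regulators or T cell regulators, and fewer DMSO intervals too. Of 31 autosomal neuronal adhesion and synapse genes, 30 border a desert. Their 48 deserts had a core of 83.5 Mb and 20.3 desert intervals per Mb, and 6 of the 47 with cores of 100 kb or more exceeded the median of all such deserts, 30.3 per Mb. Of 30 developmental regulator genes, 28 border 42 deserts with 53.9 desert intervals per Mb, and 25 of 36 exceeded that median. Of 30 T cell regulator genes, 22 border 28 deserts with 41.9 per Mb, close to the 40.3 per Mb of all deserts, and 14 of 24 exceeded the median. The DMSO intervals per Mb were 5.56, 17.5 and 12 for the 3 lists, beside 12.7 over all deserts. The lists differ in desert length and were not compared at equal length.

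Among the T cell regulators, Bcl11b, which encodes a transcription factor needed for T cell commitment, borders the desert with most intervals. Gm52008 to Bcl11b, at chr12:107112137-107910402, held 123 desert intervals in 0.698 Mb, or 176 per Mb, and 40 DMSO intervals. Its largest cluster had 56 desert intervals over 242 kb and ended 51.4 kb from the gene, next to the edge of the core. Runx1, which encodes a transcription factor of blood cells, borders a desert with 104 desert intervals and 26 DMSO intervals, where the largest cluster, of 29, lay 467 kb from the gene. Id2, which encodes an inhibitor of E proteins in effector T cells, borders a desert of 1.11 Mb with 70 and 22. Other deserts of this list were sparser. Zeb2 to Acvr2a held 65 desert intervals in 3.6 Mb, or 18.1 per Mb, and Celf2 to Gata3 held 48 in 2.36 Mb, or 20.3 per Mb. Each of these had 16 DMSO intervals and a largest cluster of 4. In the desert between Myc, the growth regulator gene, and Gsdmc there were 60 desert intervals in 1.69 Mb and 22 DMSO intervals. Its largest cluster, of 26 desert intervals over 94.1 kb, lay 77.0 kb from Myc and held 6 DMSO intervals.

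Of the developmental regulators, Tbx3 and Sall3 border 2 of the 10 deserts named above, with the largest clusters 262 kb and 182 kb from the gene. The Sox2 desert held 84 desert intervals and 21 DMSO intervals, with a largest cluster of 17 that lay 207 kb from Sox2. Of the neuronal genes, Pcdh9 and the cadherin gene Cdh20 border the deserts with most intervals, at 93 and 86, or 20.9 and 20.6 per Mb. Deserts next to the protocadherin gene Pcdh18, the adhesion receptor gene Adgrl3 and the contactin gene Cntn5 followed with 74 each, or 23.2, 21.1 and 33.1 per Mb. The largest clusters of these 5 deserts held 3 to 5.

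Desert intervals were unevenly spaced. The median gap between neighbours of the same core was 8169 bp (7954 to 8365, exact binomial interval of the median, 31714 gaps). On average there was 1 interval for every 24.8 kb of core. A random scatter would also put the median gap below this average, and gaps that reach past a core were not counted. The difference between the 2 values alone therefore does not show clustering. Of the gaps, 11.5% were at most 1 kb, 39.1% at most 5 kb and 59.7% at most 0.0125 Mb, and the longest was 607 kb. DMSO intervals of the deserts had a median gap of 18045 bp (17263 to 18869) with 78.6 kb of core for each interval. With only as many highest-scoring EnPGC-1 intervals as the DMSO list has, the median gap of desert intervals was 28640 bp (27188 to 29870), longer than that of DMSO intervals. Both gaps of desert intervals leave out those that overlap DMSO, while the DMSO gap uses all DMSO intervals of the deserts, so the sets are unlike. Nearer to genes, EnPGC-1-only intervals had a median gap of 3499 bp. In 7255 windows of 100 kb laid along the cores, the median was 2 desert intervals and the mean 3.62. No desert interval was present in 12.6% of windows, and 8.02% had 10 or more, up to 43, and held 38.1% of the intervals in windows. The variance of the count was 6.35 times its mean, and 4.00 times for DMSO intervals. Such a ratio also depends on the mean, and the cores had 40.3 desert intervals and 12.7 DMSO intervals per Mb. The 2 ratios therefore do not show which list is more clustered. Of the 582 windows with 10 or more desert intervals, 18 had no DMSO interval.

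Joining desert intervals of a core over gaps of up to 0.0125 Mb gave 14952 clusters. Single intervals made up 9496 of them and 28.0% (27.6 to 28.5) of all desert intervals. Clusters of 3 or more held 55.9% (55.4 to 56.5), clusters of 10 or more 26.9% (26.5 to 27.4), and 21 clusters of 50 or more held 4.65%. Neighbours share a cluster by definition, so these ranges are too narrow. The share in clusters of 3 or more was 19.7% (18.9 to 20.4) when only as many highest-scoring EnPGC-1 intervals as the DMSO list has were kept.

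**Figure D4:**
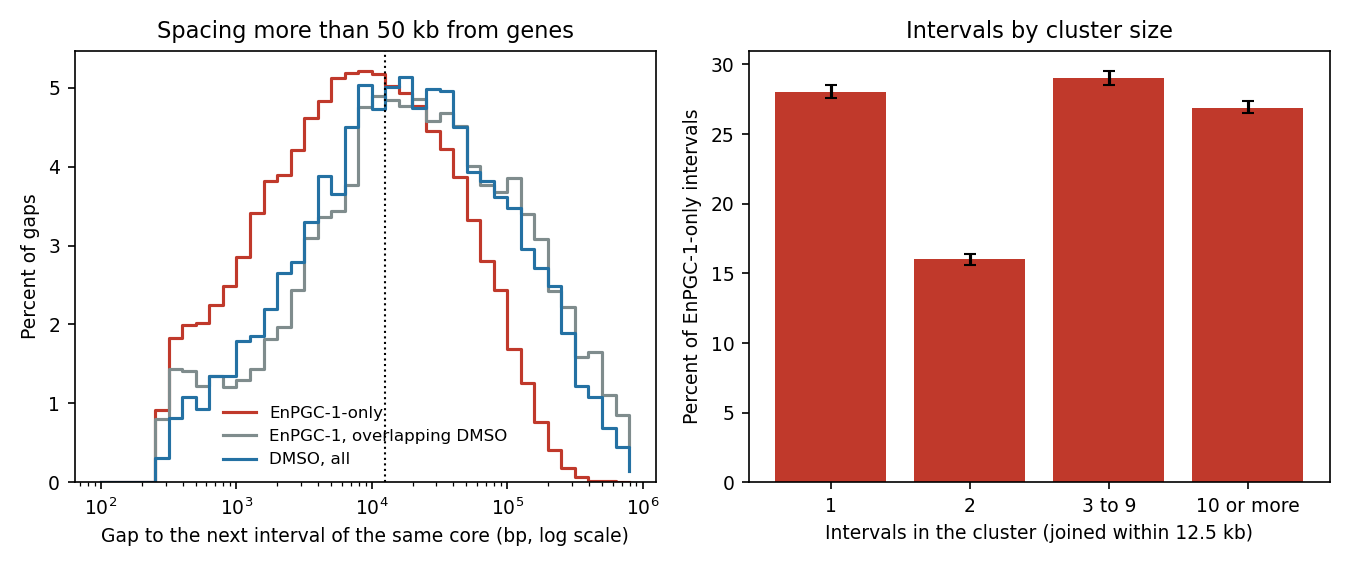
Left, share of gaps in percent (vertical axis) by gap length in bp up to 1 Mb (horizontal axis, log scale) for EnPGC-1-only, overlapping EnPGC-1 and DMSO intervals more than 50 kb from genes, with the joining distance of 0.0125 Mb dotted. Right, percent of EnPGC-1-only intervals by the size of their cluster, with exact 95% intervals: 28.0% were single and 26.9% lay in clusters of 10 or more.

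The largest cluster filled nearly the whole core between Mn1 and Cryba4, with 217 desert intervals over 675 kb at chr5:111509491-112184715. Its median gap was 1508 bp, its desert intervals covered 21.8% of it, and its highest score was 9.06. Within it lay 69 EnPGC-1 intervals that overlapped DMSO and 89 DMSO intervals. The desert between Nphp4 and Ajap1 held clusters of 130 and 93, and the next desert, between Ajap1 and A430005L14Rik, one of 109 over 371 kb. The cluster next to Gm6569 had 85 intervals over 285 kb. The desert between the corepressor gene Tle3 and Rplp1 had a cluster of 79 over 270 kb with 14 DMSO intervals, and that between the stress gene Gadd45g and Diras2 one of 71 over 223 kb with 25. Clusters of 62, 61 and 61 lay between Ubl3 and Katnal1, Sdk2 and Rpl38, and Matn1 and Ptpru. All of these 10 clusters held DMSO intervals, from 14 to 89, and had 26.4 to 33.1 desert intervals per 100 kb. All but the last had an end 50.1 to 52.6 kb from a gene, next to the edge of the core, where the choice of intervals ends.

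**Figure D5:**
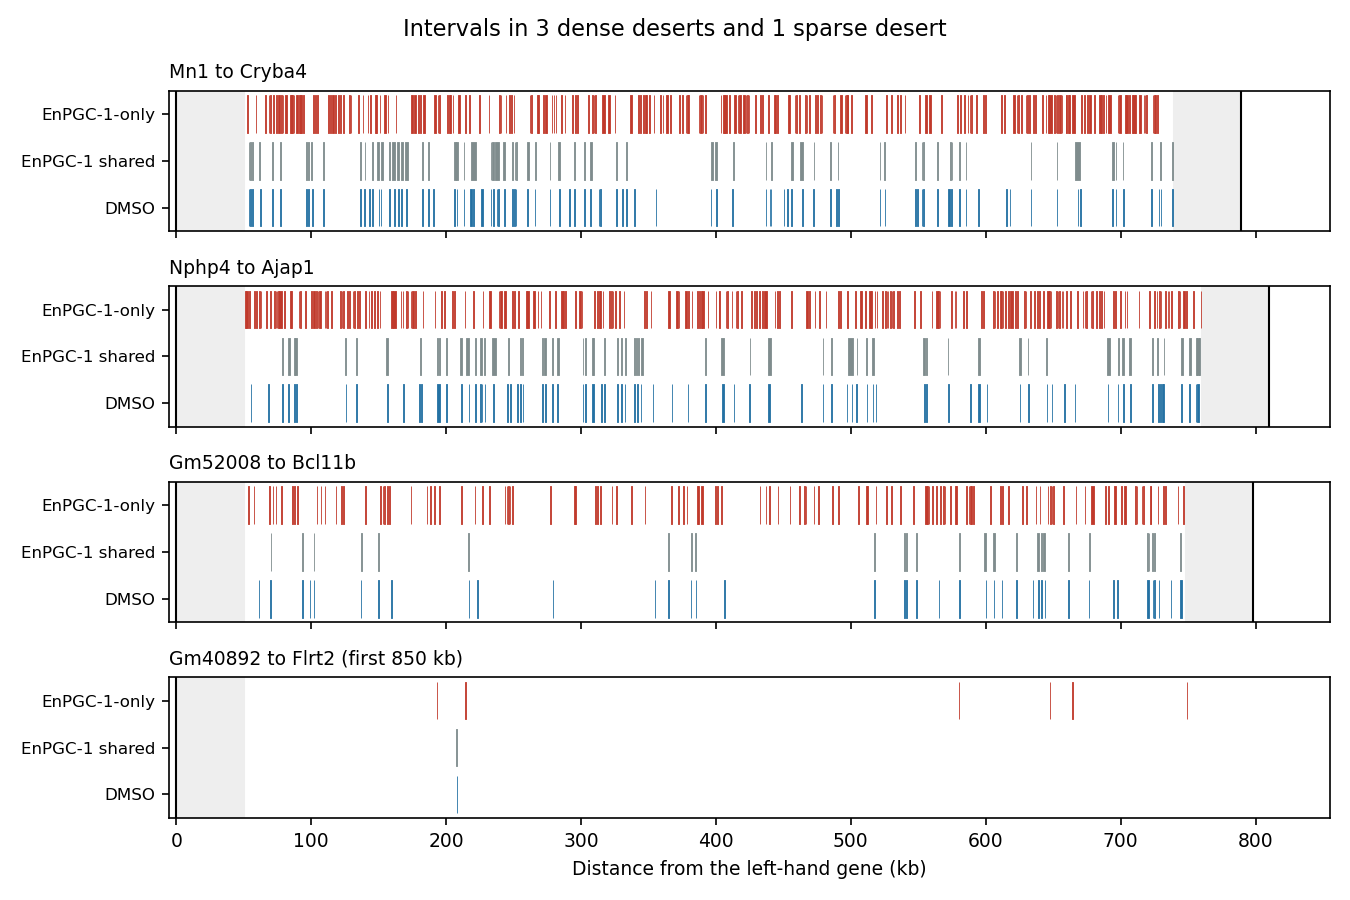
Positions of EnPGC-1-only intervals, EnPGC-1 intervals that overlap a DMSO interval, and DMSO intervals along 4 deserts (horizontal axis, kb from the left-hand gene). Grey marks the 50 kb next to a gene, and black lines the genes. The 217, 223 and 123 EnPGC-1-only intervals of the upper 3 deserts stand close together along with DMSO intervals, while the Flrt2 desert holds 23 in 2.70 Mb, of which the left-hand part is drawn.

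The highest scores came from a few places, most of them outside the 10 deserts with most intervals. The top desert interval, at chr2:98666615-98667259 between Lrrc4c and Iftap, scored 297.02, and 4 more with scores of 25.28 to 37.98 lay between 3000313 and 3035260 at the start of chromosome 9. Both places are known from published lists of regions with very high signal in most sequencing assays, next to satellite repeats. No DMSO interval lay within 20 kb of the chromosome 2 interval, and the nearest was 223 kb away. Near the 4 on chromosome 9 the nearest DMSO intervals were 12 to 45.8 kb away.

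Of the other 5 leading intervals, the one between Zfp980 and Zfp987 scored 19.49 and had a DMSO interval 776 bp away. The interval between Myc and Gsdmc, at chr15:63659340-63660231, scored 17.32, was 892 bp wide with 2 summits and lay 826 bp from a DMSO interval with a score of at most 2.16. It was 116 kb from the nearest protein-coding gene, on the side of Gsdmc. The others, between Slc16a14 and A530032D15Rik, Sall3 and Galr1, and Nucb2 and Xylt1, scored 16.32, 15.30 and 14.84. The last had no DMSO interval within 20 kb.

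Long non-coding RNA genes took a larger share of the desert intervals than of the core. They filled 9.12% of the core and held 12.9% of desert intervals by midpoint, which is 57.2 per Mb against 38.6 per Mb elsewhere in the core. DMSO intervals had 19.3 and 12.1 per Mb. Of the 3093 long non-coding RNA genes lying wholly in the cores, 1694 (54.8%, 53.0 to 56.5) overlapped a desert interval. The share was 22.3% (20.7 to 23.9) of 2741 pseudogenes and 3.81% (2.34 to 5.82) of 525 small nucleolar RNA genes. These genes differ in length, and a longer gene meets more intervals. Of 556 antigen receptor gene segments, which are V, D, J and C segments that RefSeq does not class as protein-coding, 22 (3.96%) overlapped one. The 7 deserts with such segments held 206 desert intervals, or 26.4 per Mb.

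RefSeq gave 3269 promoter windows in the cores, all of long non-coding RNA genes, and 467 of them (14.3%) touched a desert interval. Over all RefSeq windows on these chromosomes 25.1% touched an EnPGC-1-only interval, and over long non-coding RNA windows nearer to protein-coding genes 22.4% did. The 467 windows had a median G and C content of 51.7% and 5 CG dinucleotides, against 44.0% and 2 in the 2598 desert windows with no interval in either list. The 169 desert windows under an EnPGC-1 interval that overlapped DMSO had 53.0% and 6. CpG-rich windows like those of Zmiz1os1 and E130102H24Rik were few: 15 or more CG dinucleotides were present in 4.07% of windows under desert intervals, in 13.0% of those under overlapping intervals, in 0.693% of unmarked ones and in 35.2% of all RefSeq windows. Among long non-coding RNA windows nearer to protein-coding genes the share was 16.6%.

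The base composition of these promoter windows also moved with the density of the desert, while that of the deserts and intervals themselves was not analysed here. Desert windows had a median of 41.3% G and C where desert intervals were under 20 per Mb, 43.7% at 20 to 50, 45.7% at 50 to 100 and 49.7% at 100 or more per Mb. The share of windows under a desert interval went along the same order from 2.96% to 29.5%. The classes were made from the same desert intervals, so a rise in this share follows from the grouping and nothing is read from it. The part of base composition in the number of listed intervals was not tested.

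Short motifs were counted in the windows on both strands, where a match is a description only. The AP-1 motif TGANTCA was present in 14.1% of the 467 windows, in 10.5% of unmarked desert windows and in 7.84% of all RefSeq windows. Desert windows under EnPGC-1 intervals that overlapped DMSO had it in 7.69%, or 13 of 169. The RUNX motif TGTGGT was present in 22.1%, 19.9% and 16.7%, and in 22.5% of the windows under overlapping intervals. The ETS motif CCGGAAG, which holds a CG, was present in 5.35%, 1.42% and 9%, and in 6.51% under overlapping intervals. The median G and C content differed between these window sets, and its part in the shares was not tested.

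Of 155 miRNA genes in the cores, 18 (11.6%) overlapped a desert interval and 12 an EnPGC-1 interval that overlapped DMSO. The hairpins counted below were fewer: of 135, 15 (11.1%) touched a desert interval and 11 an EnPGC-1 interval that overlapped DMSO. The mature sequences of 4 from the desert with most hairpins and of 4 from other deserts are printed as RefSeq gives them, with the seed, bases 2 to 8, in capitals. No pair among them shares a seed.

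mmu-miR-134-5p: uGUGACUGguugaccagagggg
mmu-miR-541-5p: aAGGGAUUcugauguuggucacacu
mmu-miR-495-3p: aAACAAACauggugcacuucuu
mmu-miR-300-3p: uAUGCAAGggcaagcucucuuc
mmu-miR-101a-3p: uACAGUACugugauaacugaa
mmu-miR-137-3p: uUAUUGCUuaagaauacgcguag
mmu-miR-184-3p: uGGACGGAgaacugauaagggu
mmu-miR-205-5p: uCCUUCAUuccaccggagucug

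The first 4 belong to the imprinted miRNA cluster between Rtl1 and the deiodinase gene Dio3, which is expressed from the maternal chromosome. This desert has 38 hairpins, between 109682197 and 109747960 on chromosome 12, and 8 of them touched a desert interval. The 65.8 kb from the first to the last hairpin held 15 desert intervals, 6 overlapping EnPGC-1 intervals and 5 DMSO intervals. With 228 desert intervals per Mb this stretch was close to the 193 per Mb of its whole desert, which held 111 desert intervals and 55 DMSO intervals. The interval over the hairpin of miR-134 scored 6.45, that of miR-541 4.21 and that of miR-300 3.69. The interval at miR-495 started inside the hairpin, at 109718786, and covered only part of it. It scored 1.34, which is close to the lowest score in the list, 1.31.

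The other 4 miRNAs lie in 4 different deserts. The hairpin of miR-101a, between Jak1 and Ak4, lies in the same desert as the CG-rich start of E130102H24Rik, and its interval scored 4.75. The hairpin of miR-184, a miRNA of the eye and epidermis, was under an interval of 742 bp with a score of 4.73, between Ankrd34c and Rasgrf1. The interval at miR-205, a miRNA of epithelia, scored 3.56 and that at miR-137, a miRNA of neurons, 2.68. The interval at miR-137 ended inside the hairpin, at 118433874, and covered only part of it. Between Gm51483 and the imprinted gene Ndn lie 13 hairpins in a desert with 26 desert intervals, and 0 of these hairpins touched one.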

How the data were processed

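The submitters' processing notes name the build mm10, the peak caller MACS2 2.2.2.20160309, the aligner Bowtie 1.1.2, Trimmomatic 0.38, ChIPseeker 11.16.1 and Picard 0.118. For parameters, controls and pooling the sources used here give nothing. The authors called peaks and deposited 1 headerless list per treatment, whose score column was read as −log10 q-values because its lowest value was 1.31 in both. Entries repeating an interval were combined, 84538 into 81522 for DMSO and 329623 into 253423 for EnPGC-1. Which H3K27ac samples each list holds is not stated.

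Genes were the 21761 protein-coding RefSeq genes of GRCm38.p6 placed at or after 3 Mb. Another 126 whose coordinates end before that, where no interval is listed, were left out. Assembly gaps inside cores were not removed. Overlap meant 1 bp. Bands and windows used interval midpoints.

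Named deserts were the 10 with most intervals, the 5 densest and 5 sparsest of 1 Mb or more, and those of the 10 largest clusters and 10 highest scores. Of each gene list those with most intervals were named. The members and lists were chosen with earlier results of these data known. The calculations (Python 3.11.15, pandas 2.3.3, scipy 1.17.1) were tested on 200 simulated sets, of which 0 differed from the answer counted base by base. Alternatives changed the score limit, list size, DMSO margin, gene distance, gene types, merging and joining distance, with open ends and receptor segments left out added after seeing the data.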

Additional observations from a re-analysis of the deposited data

How the results depend on the processing

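The count of desert intervals, 33876, was 16889 with scores at or above the EnPGC-1 median, 9944 with equal numbers of highest-scoring intervals, 22078 beyond 100 kb from genes and 9678 when every RefSeq gene type counted. In the same order the median gap of 8169 bp became 18132, 28640, 11058 and 13369.5 bp, and the share in clusters of 3 or more went from 55.9% to 33.3%, 19.7%, 48.4% and 35.1%. With no DMSO interval within 1 kb these were 9748 bp and 52.2%, and with merging within 1000 bp 12400.5 bp and 45.6%. Joining within 5000 bp gave 34.5% and within 25 kb 71.9%. The 297 deserts with 50% of the intervals became 194 beyond 100 kb, and ranged from 282 to 365 under the others. The density ratio of 0.279 beyond 500 kb was 0.323 at the median score, 0.337 with equal numbers, 0.305 without DMSO within 1 kb, 0.502 with every gene type and 0.346 after merging. It stayed below 1 in each. Each setting of score, list size, gene distance, gene types or DMSO margin keeps fewer intervals by construction. Merging joins intervals, and the joining distance sets the size of clusters. What else moved the values was not tested. No ratio is given beyond 100 kb, where the nearer band is empty, or for open ends. Leaving out open chromosome ends or receptor segment deserts changed these values by less than their counting interval, or a count by less than 1.5 times. No paired analysis was possible because the values are 1 list per treatment, and for the same reason no replicate could be left out. Depth is unknown and limits every count.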
